A study of Mus musculus with 6 samples.

Results

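The Schlafen family was examined in RNA-seq data from subcutaneous mouse tumors, and its members were taken as the 7 genes with the symbols Slfn1, Slfn2, Slfn3, Slfn4, Slfn5, Slfn8 and Slfn9, out of 55487 genes in the count table. All 7 were found once by symbol, and all 7 passed the filter on low counts, together with 15114 genes tested in all. Other genes whose symbol begins with Slfn were read beside them. The tumors were grown from CT26.WT, a colon carcinoma cell line of the BALB/c strain, in wild-type immunocompetent BALB/c mice that were bought at 4 weeks of age. The 3 control tumors came from mice given PBS. The 3 IFN-γ tumors came from mice injected every 48 h in the tail vein with IFN-γ, in a volume of 100 µL and at a concentration of 100 ng/ml. All 6 tumors therefore carried the same cell line in the same host, and each library was made from whole tumor tissue, with the immune cells, stroma and any skin or muscle taken along with the cancer cells.

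Schlafen proteins are regulators of cell growth and of RNA, and many of their genes respond to interferons. Interferons bind receptors that switch on JAK kinases and STAT factors. Type I interferons act mainly through the interferon-stimulated response element (ISRE) in the promoters of their target genes, and IFN-γ acts mainly through the gamma-activated site (GAS). Mouse Schlafen genes are known chiefly from T cells and macrophages, where levels change with development and activation. Short members hold little beyond the Schlafen core, intermediate members add a linker, and long members add a part related to helicases, which use ATP to unwind nucleic acids. The comparison of the 2 groups asks how the level of each gene differed between tumors of IFN-γ-injected and PBS-injected mice.

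The libraries held 15759300 to 17559680 counts on genes. Levels are given as CPM, the counts of a gene scaled by the size of the library and its TMM factor. A gene with 0 counts could still have reached the CPM of 3 counts, 0.169 to 0.187 by library, where only counting error is covered. IFN-γ tumor 3 stood apart from the others of its group. It was the only tumor with abundant markers of epidermis, at a summed 70.2 CPM against 2.75 to 12.4 CPM in the other 5 tumors, and leaving it out raised the number of genes past the threshold from 12 to 381 for higher levels and from 5 to 112 for lower levels in the IFN-γ group. Values are therefore given with it and without it. The fit without it was chosen with earlier results of these data known. Its p-values and intervals do not allow for that choice. The 9 markers of epithelial cells were checked against the label of colon carcinoma, and 4 of them passed the filter on low counts. Krt20, a keratin of intestinal epithelium, stood at 113 to 270 CPM and the keratin Krt18 at 6.41 to 10.4 CPM, while Cdx2, a transcription factor of intestinal epithelium, had 0 counts in every tumor and Krt19 and Vil1 had 0 in some. Nothing in the labels ties a tumor to an animal, so p-values measure only the spread between these samples.

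The 7 genes lie in 1 cluster on mouse chromosome 11, at chr11:82951349-83215154 of GRCm38 (mm10), in the GENCODE M21 annotation. The cluster spans 263.8 kb. From left to right it holds Slfn5 on the plus strand, Slfn9, Slfn8 and the pseudogene Slfn10-ps on the minus strand, and Slfn2, Slfn1, Slfn4 and Slfn3 on the plus strand. The longest annotated coding sequences have 337 codons for Slfn1 and 378 for Slfn2, the short members. They have 640 codons for Slfn3 and 602 for Slfn4, the intermediate members, and 884 for Slfn5 and 910 for both Slfn8 and Slfn9, the long members. Exons of Slfn5 overlap those of the antisense gene Slfn5os, which had at most 1 count in any tumor.

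Promoters of all 7 members were found in RefSeq (GRCm38.p6), as 8 windows from 250 bases before to 50 bases after an annotated start. The core of the ISRE, spelled GAAANNGAAA and searched on both strands, occurred in the windows of 3 members, Slfn5, Slfn8 and Slfn9. It occurred in 3.44% of all 32851 promoter windows. The count is of members and the share is of windows, so the units differ. Slfn8 and Slfn9 hold the same letters in closely similar stretches, and their matches are not read as independent. The GAS, spelled TTCNNNGAA and searched on both strands, occurred in the windows of 0 of 7 members and in 8.30% of all windows. The stretches with the ISRE core are shown because all 3 belong to the long members, with the core in capitals and read 5′ to 3′ on the strand of the gene. The core of Slfn5, in chr11:82951917-82951986 on the plus strand, lies at positions -155 to -146 from the start. In Slfn9, it lies in chr11:82991836-82991905 on the minus strand, at positions -45 to -36, and reads on the opposite strand. In Slfn8, it lies in chr11:83020819-83020888 on the minus strand, at positions -48 to -39 from 1 annotated start and -136 to -127 from the other, also on the opposite strand.
Slfn5: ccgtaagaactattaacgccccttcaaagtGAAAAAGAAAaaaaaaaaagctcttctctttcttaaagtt
Slfn9: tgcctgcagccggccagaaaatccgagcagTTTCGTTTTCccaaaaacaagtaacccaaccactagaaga
Slfn8: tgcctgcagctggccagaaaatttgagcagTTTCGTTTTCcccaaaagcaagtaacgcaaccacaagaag
A match of these letters is a description of the window and was not tested as a binding site.

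Levels of different genes were compared per kilobase of exon, since long genes collect more reads. In control tumors Slfn9 stood at 45.3 ± 2.51 CPM per kb (SD, n = 3) and Slfn2 at 44.7 ± 4.91 CPM per kb, and these top levels overlapped between tumors. Slfn8 followed at 13.3 ± 0.956 CPM per kb. It did not overlap with Slfn5 at 10.9 ± 1.40 CPM per kb, whose tumors overlapped with those of Slfn4 at 10.3 ± 0.80 and Slfn1 at 9.42 ± 3.42 CPM per kb. Slfn8 did overlap with Slfn1, which had 12.9 CPM per kb in control tumor 3, against 12.5 for Slfn8 in control tumor 1. Slfn3 was the lowest member at 4.94 ± 0.156 CPM per kb, below every value of the members above it. The pseudogene Slfn10-ps reached 0.955 ± 0.230 CPM per kb. Slfn14 had 0 counts in all 6 tumors, and Slfnl1, a relative outside the cluster, had 0 to 3 counts per tumor. The spread among the controls also differed by member. The coefficient of variation of the control CPM was 3.17% for Slfn3 and 36.4% for Slfn1.

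**Figure D1:**
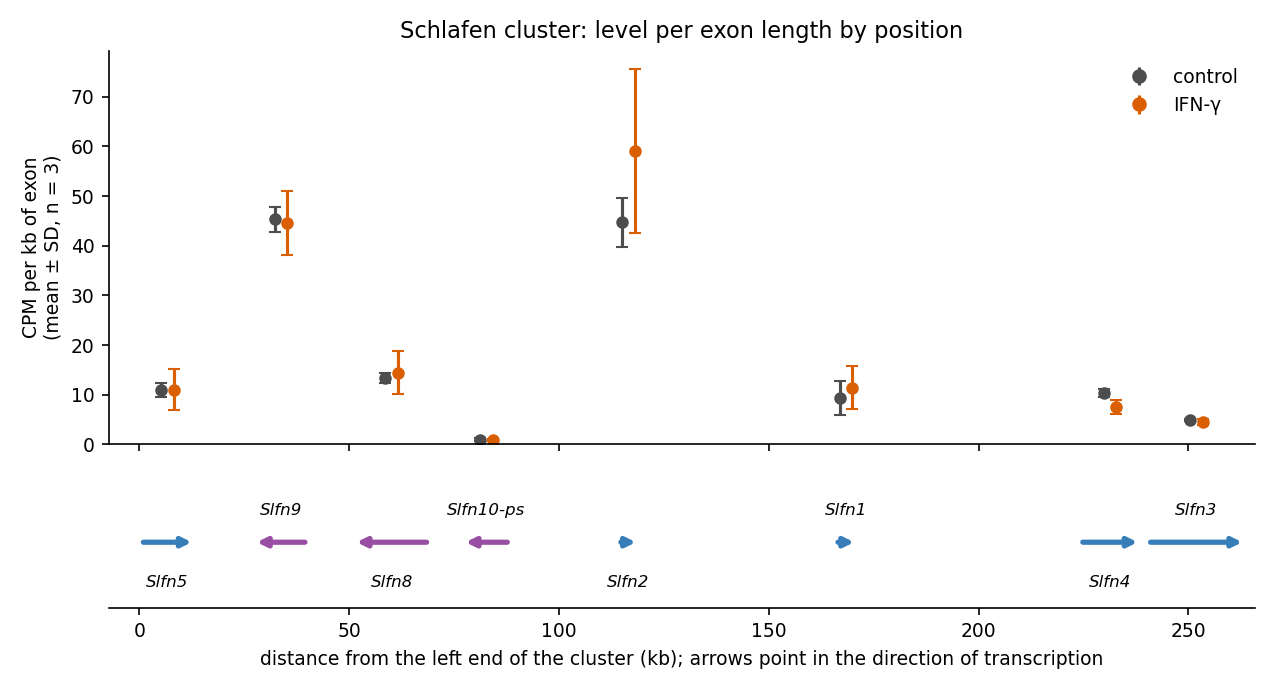
Level of the 7 Schlafen genes and Slfn10-ps in CPM per kb of exon (mean ± SD, n = 3 tumors per group; grey, control; orange, IFN-γ) against the distance in kb from the left end of the cluster, with arrows for the genes below. Slfn9 and Slfn2, at 45.3 and 44.7 CPM per kb in the controls, stand above all other members.

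None of the 7 members passed the threshold of 0.05 between the groups when all 6 tumors were used (edgeR's quasi-likelihood test, Benjamini-Hochberg adjusted p from 0.36 to 0.99). Among all genes tested, the IFN-γ group was called higher for 0.0794% and lower for 0.0331%, so few calls were made for any gene. At an unadjusted p under 0.05 there was 1 member, Slfn4, and there were 1539 genes in all. DESeq2 and limma-voom also called 0 of the 7. The log2 fold change was above 0 for 4 members and below 0 for 3, with a median of 0.02, against 0.002 over all genes tested. In whole tumors, fewer cells of a type and less RNA per cell cannot be told apart. Without IFN-γ tumor 3, 1 of the 7 passed, Slfn2, which was higher, in a fit where 2.46% of genes were called higher and 0.723% lower. That tumor had the lowest value of its group for all 7 members, so leaving it out raised every estimate. The fit was chosen with this known, and its adjusted p-values do not allow for the choice. The median log2 fold change of the members was then 0.29, against -0.02 over all genes.

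Slfn2, a short member, is known to hold T cells in quiescence and to protect transfer RNA from cleavage. Its level was 71.8, 67.9 and 83.6 CPM in control tumors 1, 2 and 3. In IFN-γ tumors 1, 2 and 3 it was 104, 122 and 68.4 CPM. IFN-γ tumors 1 and 2 were thus above every control, and IFN-γ tumor 3 was within the control range. The means were 74.4 ± 8.18 and 98.3 ± 27.4 CPM (SD, n = 3 each), with a log2 fold change of 0.40 (standard error 0.19, 95% interval -0.04 to 0.84, edgeR adjusted p = 0.52). Without IFN-γ tumor 3 it was 0.60 (standard error 0.11, 95% interval 0.35 to 0.84, edgeR adjusted p = 0.025).

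Slfn1, the other short member, is known for slowing the growth of T cells when it is expressed in the thymus. It had 17.5, 11.2 and 24.0 CPM in the controls. In the IFN-γ tumors it had 19.3, 30.3 and 14.4 CPM. The groups overlapped, with the highest value in IFN-γ tumor 2 and the lowest in control tumor 2. The log2 fold change was 0.28 (standard error 0.32, 95% interval -0.45 to 1.02, edgeR adjusted p = 0.82), the widest interval of the family. Without IFN-γ tumor 3 it was 0.49 (edgeR adjusted p = 0.47), and without IFN-γ tumor 2 it was -0.06.

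Slfn4, an intermediate member, is known from macrophages and other myeloid cells. It had 39.5, 44.3 and 38.2 CPM in the controls, from 633, 786 and 670 counts. It had 34.6, 31.6 and 23.4 CPM in the IFN-γ tumors, from 597, 518 and 379 counts. Slfn4 was the only member whose groups did not overlap, with every IFN-γ tumor below every control, while 7.5% of all genes tested were lower without overlap and 7.62% higher without overlap. The means of the controls and of the IFN-γ group were 40.7 ± 3.17 and 29.9 ± 5.80 CPM (SD, n = 3 each). The log2 fold change was -0.44 (standard error 0.14, 95% interval -0.77 to -0.11, unadjusted p = 0.014, edgeR adjusted p = 0.36) and did not pass the threshold over all genes. Without IFN-γ tumor 3 it was -0.31 (95% interval -0.54 to -0.07, edgeR adjusted p = 0.18).

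Slfn3, the other intermediate member, is the neighbor of Slfn4 and is known from T cells and from the differentiation of gut epithelium. It had 16.2, 17.2 and 17.1 CPM in the controls. In the IFN-γ tumors it had 14.2, 17.7 and 13.8 CPM. IFN-γ tumor 2 lay above the narrow control range, and IFN-γ tumors 1 and 3 lay below it. For Slfn3 the log2 fold change was -0.14 (standard error 0.13, 95% interval -0.45 to 0.16, edgeR adjusted p = 0.77) with all 6 tumors, and -0.09 without IFN-γ tumor 3 (edgeR adjusted p = 0.82).

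**Figure D2:**
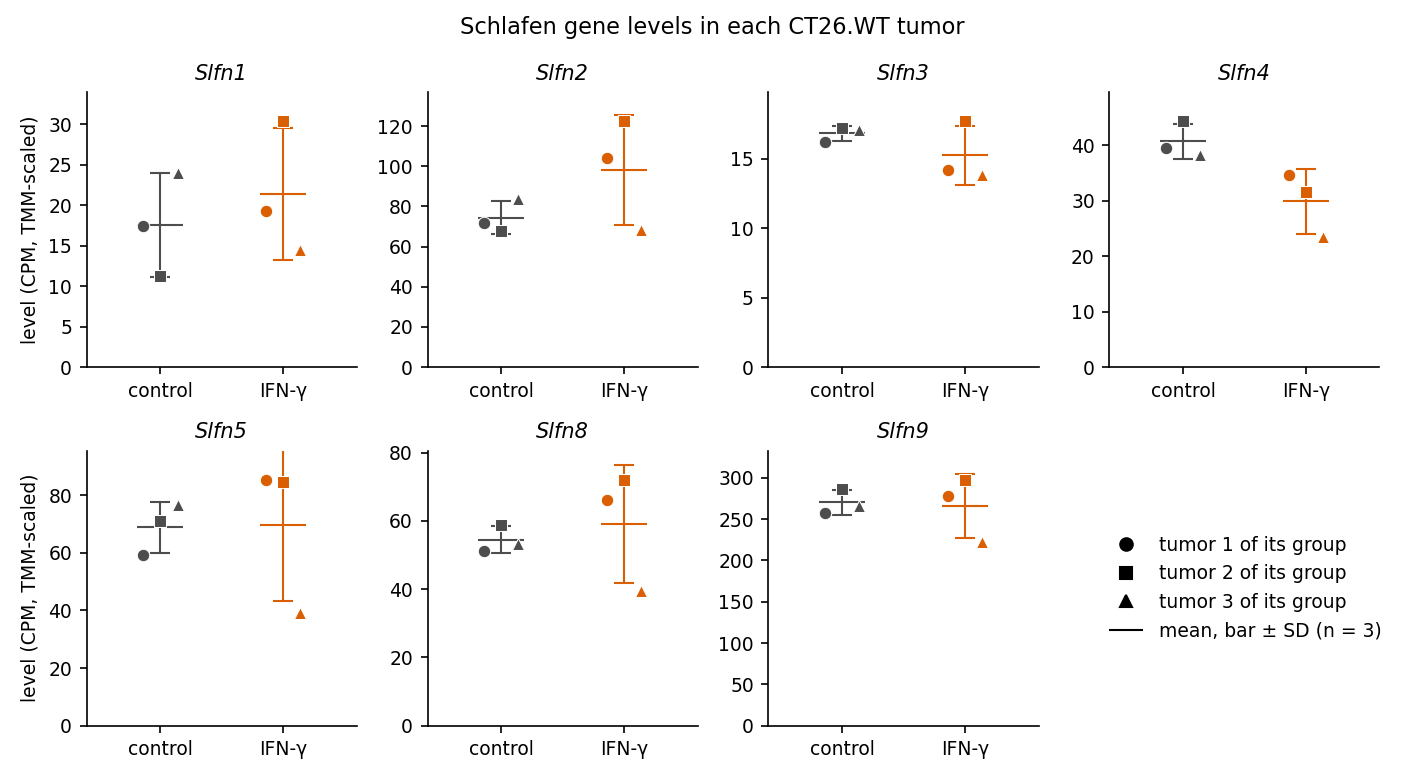
Level of each Schlafen gene in CPM (vertical axis from 0, a separate scale for each gene) in the 3 control (grey) and 3 IFN-γ (orange) tumors, with the mean and SD of each group. All 3 IFN-γ values of Slfn4 lie below its controls, while Slfn2, Slfn5 and Slfn8 have IFN-γ tumors 1 and 2 above the controls and tumor 3 apart from them.

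Slfn5, a long member with an interferon-responsive human counterpart of the same name, had 59.2, 71.2 and 76.5 CPM in the controls. IFN-γ tumors 1 and 2 had 85.3 and 84.8 CPM, and IFN-γ tumor 3 had 39.1 CPM. The IFN-γ group held both the highest values and the lowest, so the group means of 68.9 ± 8.85 and 69.7 ± 26.5 CPM (SD, n = 3 each) were nearly equal. Its log2 fold change was 0.02 (standard error 0.26, 95% interval -0.59 to 0.62, edgeR adjusted p = 0.99). Without IFN-γ tumor 3 it was 0.29 (95% interval 0.05 to 0.54, edgeR adjusted p = 0.21), and it was -0.15 when either of the other IFN-γ tumors was left out and to -0.08 without control tumor 1.

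Slfn8, a long member close in sequence to Slfn9, had 51.3, 58.8 and 53.4 CPM in the controls, against 66.1, 72.0 and 39.4 CPM in the IFN-γ tumors. As for Slfn5, IFN-γ tumors 1 and 2 were above every control, and tumor 3 was below every control. The log2 fold change was 0.12 (standard error 0.20, 95% interval -0.33 to 0.57, edgeR adjusted p = 0.88). It was 0.33 without IFN-γ tumor 3 (95% interval 0.13 to 0.54, edgeR adjusted p = 0.097) and -0.05 without IFN-γ tumor 2.

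Slfn9, the member with the most reads, had 258, 287 and 266 CPM in the controls. It had 278, 297 and 223 CPM in the IFN-γ tumors. IFN-γ tumor 1 lay within the control range, tumor 2 just above it and tumor 3 below it. Slfn9 had a log2 fold change of -0.02 (standard error 0.11, 95% interval -0.28 to 0.23, edgeR adjusted p = 0.97), the narrowest interval of the family. Without IFN-γ tumor 3 it was 0.08 (edgeR adjusted p = 0.71), and without control tumor 2 it was 0.02.

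**Figure D3:**
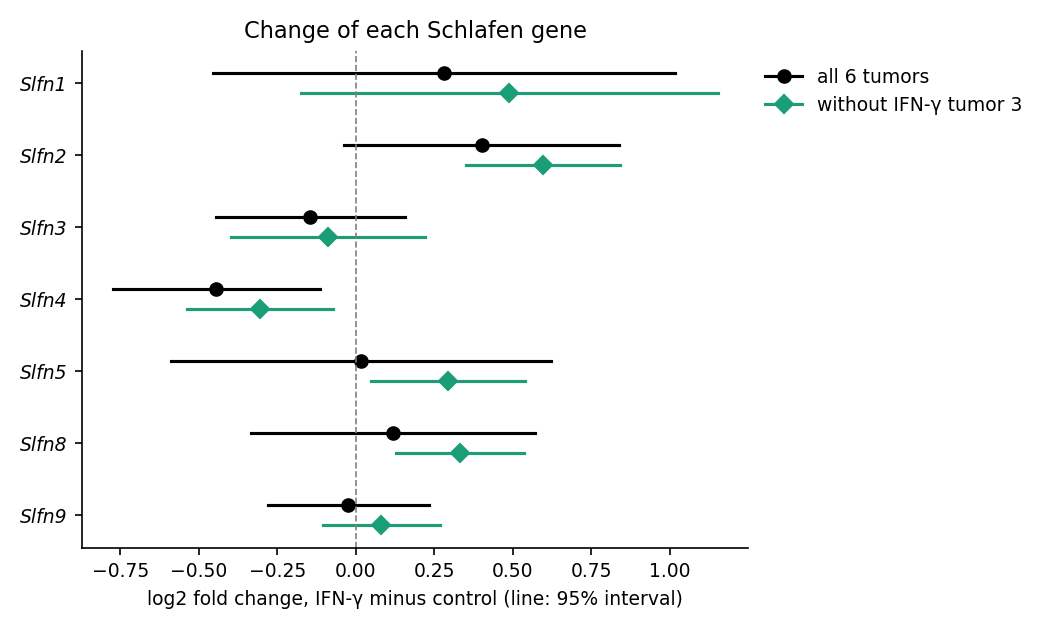
Log2 fold change of each Schlafen gene, IFN-γ minus control, from edgeR (horizontal axis; points, estimates; lines, 95% intervals), for all 6 tumors (black) and without IFN-γ tumor 3 (green). The estimate for Slfn2 moves from 0.40 to 0.60 and its interval narrows, and that for Slfn4 stays below 0 at -0.44 and -0.31.

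The position of the IFN-γ tumors was then compared across the family. IFN-γ tumors 1 and 2 were both above the 3 controls for 3 members, Slfn2, Slfn5 and Slfn8, and for 18.1% of all genes tested. IFN-γ tumor 3 was below the 3 controls for 5 members, Slfn3, Slfn4, Slfn5, Slfn8 and Slfn9, and for 29.7% of all genes tested. It had the lowest value of its group for all 7 members, but the share of all genes tested with this order was not taken, so the count is not read as particular to the family. As log2 ratios to the mean of the controls, on the scale of CPM plus 0.5, the members had a median of 0.13 in IFN-γ tumor 1, with a range of -0.24 to 0.48. The median was 0.30 in tumor 2, with a range of -0.36 to 0.77. It was -0.28 in tumor 3, with a range of -0.81 to -0.12. Over all genes tested, the median ratio was within 0.01 of 0 in each of the 3 tumors.

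Lists of other interferon genes were read from the same fits. None of the 4 lists had a gene past the threshold of edgeR's test with all 6 tumors, while DESeq2 called 1 IFN-γ-induced gene and limma-voom called 0. At an unadjusted p under 0.05 in edgeR's test there were 2 of 25 type I interferon-induced genes and 16 of 25 IFN-γ-induced genes. There were also 4 of 15 receptors and signalling genes and 1 of 11 other restriction factors, beside 1539 of all 15114 genes tested. The type I interferon-induced genes and other restriction factors were thus near the share over all genes. Of 25 type I interferon-induced genes, 13 rose without IFN-γ tumor 3, among them Irf7, a factor that amplifies the interferon response (log2 fold change 0.71, edgeR adjusted p = 0.016), and Bst2, which tethers viruses to the cell surface (0.57, edgeR adjusted p = 0.033), while Samd9l, an antiviral translation inhibitor, had 0.28 (edgeR adjusted p = 0.18). Of 25 IFN-γ-induced genes, 19 rose, among them the GTPases Gbp2 (1.30, edgeR adjusted p = 0.016), Iigp1 (1.17, edgeR adjusted p = 0.023) and Gbp4 (1.30, edgeR adjusted p = 0.030). Of 15 interferon receptors and signalling genes, 3 rose, while Jak1 had 0.22 and Stat3 had 0.30 (edgeR adjusted p = 0.25 and 0.11). Of 11 other restriction factors tested, 1 rose, Samhd1, an enzyme that degrades nucleotides (0.72, edgeR adjusted p = 0.024), while Ifitm3 had 0.26 and Zc3hav1 had 0.22 (edgeR adjusted p = 0.14 and 0.20). None of the genes in these lists fell.

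The Schlafen median of 0.29 without IFN-γ tumor 3 lay below the medians of 0.44 for the type I interferon-induced genes and 1.01 for the IFN-γ-induced genes, and above those of 0.23 and 0.22 for receptors and signalling and for other restriction factors. With all 6 tumors the Schlafen median of 0.02 lay below those of all 4 lists, which were 0.24, 0.69, 0.18 and 0.16 in the same order. The log2 ratios of IFN-γ tumor 3 to the controls had medians of -0.37 over the type I interferon-induced genes and -0.09 over the IFN-γ-induced genes, and the Schlafen median of -0.28 lay between them. The difference between the Schlafen genes and any list was not tested.

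**Figure D4:**
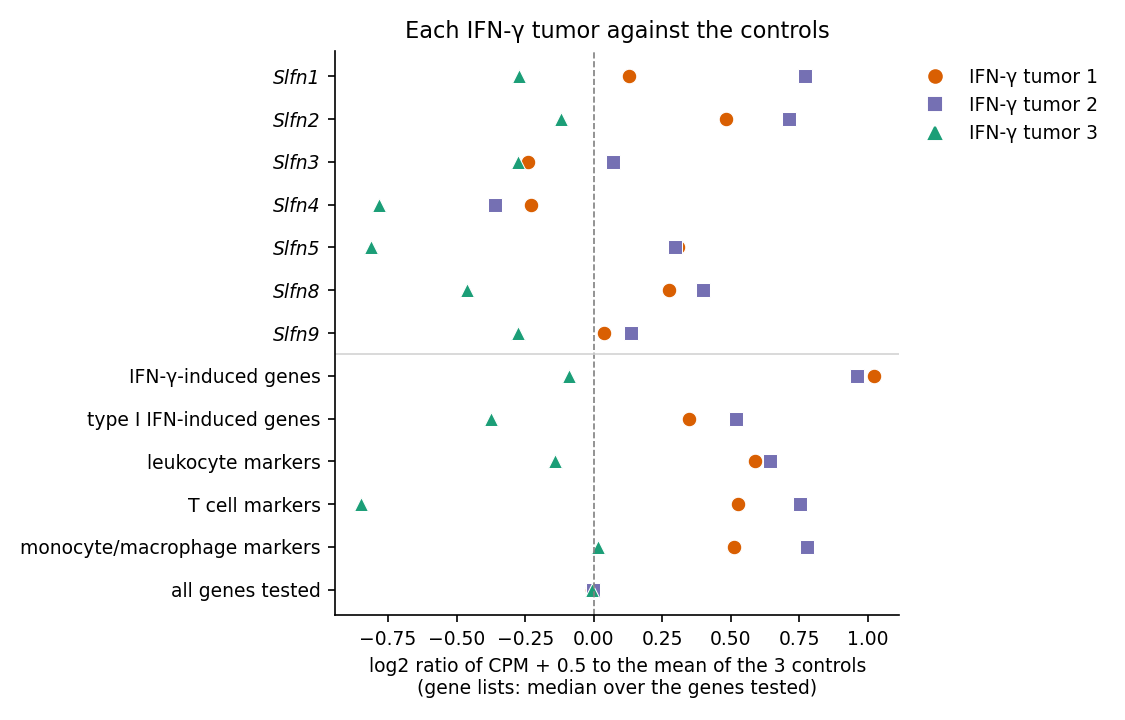
Log2 ratio to the mean of the 3 controls (horizontal axis, CPM plus 0.5) of each Schlafen gene in IFN-γ tumor 1 (circles), 2 (squares) and 3 (triangles), with the medians of gene lists and of all genes tested below the line. IFN-γ tumor 3 is the leftmost point for all 7 genes, an order that was not counted over all genes tested, and Slfn4 is left of 0 in all 3 tumors.

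The summed markers of most leukocyte types were higher in IFN-γ tumors 1 and 2 than in every control, but the sums for B cells and neutrophils were not. The 8 markers of all leukocytes summed to 718 to 906 CPM in the controls and to 1254, 1296 and 718 CPM in the 3 IFN-γ tumors, and 6 of the 8 rose without IFN-γ tumor 3. The 14 T cell markers summed to 81.5 to 122 CPM in the controls and to 154, 184 and 60.6 CPM in the IFN-γ tumors, and 1 of the 14 rose without tumor 3. The 12 markers of monocytes and macrophages summed to 3802 to 4548 CPM in the controls and to 5867, 7062 and 4206 CPM in the IFN-γ tumors, and 8 of the 12 rose without tumor 3. None of these 3 lists had a marker at 0 in any tumor. The 9 neutrophil markers, whose cells can also carry Slfn4, summed to 50.3 to 89.0 CPM in the controls and to 62.9, 70.9 and 48.9 CPM in the IFN-γ tumors, and Ly6g, a marker that defines them, was at 0 in some tumors. These markers did not move together. Of the 7 tested, 3 had a log2 fold change above 0 with all 6 tumors, and 1 rose without tumor 3. The 7 B cell markers summed to 14.9 to 21.9 CPM in the controls, with 18.1, 19.2 and 12.8 CPM in the IFN-γ tumors. Over the 5 tested, the median log2 fold change was -0.75 with all 6 tumors, and 2 of the 5 were above 0. The 8 NK cell markers, of which Klra8 was at 0 in every tumor, summed to 52.9 to 90.1 CPM in the controls, with 122, 137 and 43.4 CPM in the IFN-γ tumors. For the 8 dendritic cell markers the sums were 30.3 to 45.4 CPM, with 54.8, 58.2 and 33.0 CPM in the IFN-γ tumors. Of the other cell types, the markers of endothelial cells summed to 237 to 301 CPM in the controls and 198 to 260 CPM in the IFN-γ group, those of fibroblasts to 3490 to 5402 and 3469 to 5413 CPM, those of skeletal muscle to 136 to 891 and 156 to 470 CPM, and those of adipocytes to 121 to 206 and 200 to 291 CPM, all with overlapping sums. Gene by gene, the 8 adipocyte markers were all above 0 with all 6 tumors, at a median log2 fold change of 2.17. Of these, 7 had an unadjusted p under 0.05 in edgeR's test and 0 passed the threshold. Without IFN-γ tumor 3, 4 of the 8 rose.

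The members were therefore also read relative to the leukocyte markers, as log2(CPM + 0.5) minus the mean of the same value over the 8 markers, a measure chosen after the data were seen. On this scale, the difference between the groups was below 0 for all 7 members with all 6 tumors, and for all 7 without IFN-γ tumor 3. The whole table moved with the scale, since the median difference was -0.41 for the members and -0.38 for all genes tested. Slfn2 had the smallest difference, at -0.02, and Slfn1 followed at -0.10. Slfn4 had the largest, at -0.83. Slfn4, Slfn5 and Slfn8 were lower in every IFN-γ tumor than in every control, as were 8.24% of all genes tested, each with an exact permutation p = 0.1 (two-sided; adjusted p = 0.23 over the 7 members), which is the smallest that 3 tumors against 3 allow. For Slfn5 the values were -0.46, -0.55 and -0.41 in control tumors 1, 2 and 3, against -0.78, -0.86 and -1.1 in IFN-γ tumors 1, 2 and 3. What part the number of leukocytes had in the levels of the Schlafen genes was not tested.

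The makeup of the family was described by the share of each member in the summed CPM of the 7 genes. The sum itself was 513, 558 and 559 CPM in the controls and 601, 656 and 422 CPM in the IFN-γ tumors, with overlapping groups (two-sided exact permutation test, p = 0.8). Slfn9 made up 49.8% ± 1.97 of the sum in control tumors and 48.1% ± 4.13 in IFN-γ tumors (SD, n = 3 each). The share of Slfn2 was 14.0%, 12.2% and 15.0% in the controls, against 17.3%, 18.6% and 16.2% in the IFN-γ tumors. The share of Slfn2 was thus higher in every IFN-γ tumor, including tumor 3. In that tumor its own level, 68.4 CPM, was within the control range, and the sum of the 7 genes was the lowest of all tumors. Shares depend on one another, so a lower level of other members raises the share of Slfn2. The share of Slfn4 was 7.70%, 7.94% and 6.84% in the controls, against 5.76%, 4.82% and 5.55% in the IFN-γ tumors, lower in every IFN-γ tumor. For both the two-sided exact permutation test gave p = 0.1, the smallest that 3 tumors against 3 allow, and an adjusted p of 0.35 over the 7 shares. The shares of the other 5 members overlapped between the groups.

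**Figure D5:**
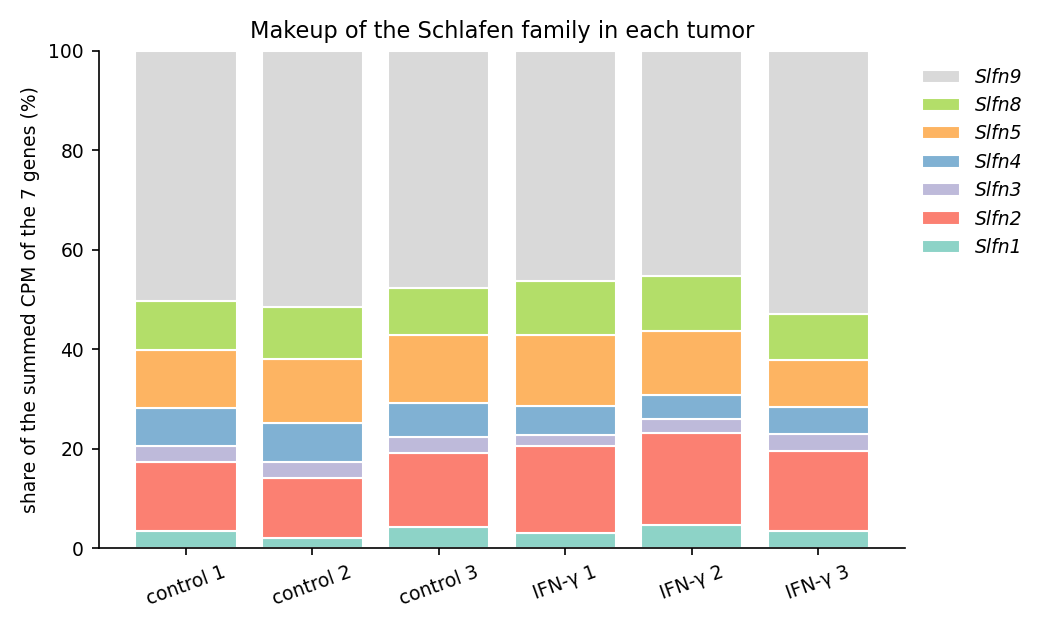
Share of each Schlafen gene in the summed CPM of the 7 genes (vertical axis, percent, stacked from Slfn1 at the bottom) in each of the 6 tumors. Slfn9 fills about as much as all others together, and Slfn2 widens from 12.2% to 15.0% in the controls to 16.2% to 18.6% in the IFN-γ tumors.

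The members share sequence, so reads can be split or dropped between them, and how the counting treated reads with several matches is not given in the sources used here. In 50-base windows of the GENCODE M21 transcripts, 14.6% of the windows of Slfn8, 11.2% of Slfn9, 8.15% of Slfn4, 7.39% of Slfn3, 4.27% of Slfn2 and 0.606% of Slfn1 occurred in another Slfn gene. None of the windows of Slfn5 did. Windows that occurred in genes outside the family made up 10.2% for Slfn3, 4.49% for Slfn4 and 3.68% for Slfn5. In 100-base windows the shares were 3.71% for Slfn9 and 3.38% for Slfn8. When Slfn3 and Slfn4 were summed to 1 row, the sum was 55.8, 61.5 and 55.3 CPM in the controls and 48.8, 49.3 and 37.2 CPM in the IFN-γ tumors. The groups of this sum did not overlap, and the log2 fold change was -0.35 (standard error 0.12, 95% interval -0.62 to -0.08, edgeR adjusted p = 0.38). The sum of Slfn8, Slfn9 and Slfn10-ps had a log2 fold change of 0.001 (standard error 0.13, 95% interval -0.29 to 0.29, edgeR adjusted p = 0.9995). The values of Slfn8 and Slfn9 taken singly are uncertain to the extent that these reads were shared.

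Profiles over the 6 tumors were compared by the root mean square difference of log2(CPM + 0.5), each gene centred on its own mean, so that a small value means a like pattern. Within the family, Slfn3 and Slfn9 were the closest pair at 0.11, followed by Slfn8 and Slfn9 at 0.15 and Slfn5 and Slfn8 at 0.16. Slfn1 and Slfn4 were the farthest apart at 0.57. The neighbors Slfn3 and Slfn4 differed by 0.23. These pairs are descriptions over 6 libraries.

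Among 11328 genes with a mean of at least 5 CPM, the genes most like Slfn2 were Ifi30, a lysosomal reductase induced by IFN-γ, at 0.029, Tmem140 at 0.037 and Lbh at 0.052, where the median of all genes was 0.35. Ifi30 had 93.2, 87.4 and 108 CPM in the controls and 130, 162 and 90.5 CPM in the IFN-γ tumors. The genes most like Slfn5 were Il21r, a receptor of lymphocytes, at 0.057, Rsad2, an antiviral interferon-induced enzyme, at 0.072 and Birc3, an inhibitor of cell death, at 0.083, against a median of 0.42. Those most like Slfn8 were Elmo1, an engulfment adaptor, at 0.034, Scly at 0.037 and Nlrp3, an inflammasome sensor, at 0.043, against a median of 0.31. For Slfn4 they were Gm5141 at 0.051, Dock6 at 0.059 and Podxl, a sialomucin of vessels, at 0.061, against a median of 0.32. Slfn9 was closest to Kdm6a, a histone demethylase, at 0.018, and Slfn3 to Cox15, a mitochondrial enzyme, at 0.038, where the medians were 0.20 and 0.19. Slfn1 had no gene closer than Gpm6b at 0.13, against a median of 0.47.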

How the data were processed

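RNA-seq was made of 3 CT26.WT tumors from mice given PBS and 3 from mice given IFN-γ. The table that the authors deposited holds raw read counts for each gene in each tumor. The submitters' processing notes name HISAT2 and mm10. The counter, strand setting, read length and treatment of multiple matches are not given in the sources used here. All columns were mapped to samples by name.

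Raw counts, with TMM factors for the library sizes, were tested in edgeR 4.0.16 (R 4.3.3) by the quasi-likelihood test, with its default filter on low counts and Benjamini-Hochberg adjustment over all genes tested, at a threshold of 0.05. CPM values served for levels, overlap of groups, shares, ratios and profiles. The standard error was the log2 fold change divided by the square root of F. As alternatives, close copies were summed, the replicate number was added as a block, 1 tumor at a time was left out, the filter was changed or removed, scaling used upper quartiles or library size only, and DESeq2 1.42.0 and voom of limma 3.58.1 replaced edgeR. Shares and ratios to leukocyte markers were compared by exact permutation tests (SciPy 1.17.1). On simulated counts with 200 genes changed 2-fold, edgeR recovered 65% over 14914 genes with 3 tumors against 3, with 6 false calls, and 61.5% over 15004 genes with 3 against 2, with 13. The members had smaller estimated changes, with folds of 0.73 to 1.32, so these shares do not give the power to call them. Counts were simulated independently for each gene, without a shift of many genes in 1 tumor.

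The members, the 4 pathway and 13 marker lists and the fit without IFN-γ tumor 3 were chosen with earlier results of these data known. Named genes were the members, other Slfn genes, the 3 genes of highest mean CPM of each pathway list and the 3 genes with the profile most like each member. Correlations between libraries and chi-square tests of their counts gave no sign of duplicates. Gene models came from GENCODE M21 and promoters from RefSeq (GRCm38.p6). Protein sequences were not analysed here. Of the profile genes, only the closest was given for Slfn1, Slfn3 and Slfn9. Krt20 and Krt18 were the 2 epithelial markers of highest mean CPM. For 1 other gene named by this rule, no value is reported here.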

Additional observations from a re-analysis of the deposited data

How the results depend on the processing

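With alternatives in place of the edgeR fit to all 6 tumors, 83 of 95 member log2 fold changes kept their direction and side of the threshold, 11 changed sign and 1 passed the threshold, Slfn2 without IFN-γ tumor 3. Slfn4 stayed below 0 in 14 of 14 alternatives (-0.56 to -0.31, lowest adjusted p = 0.13) and Slfn2 above 0 in 13 of 13 (0.21 to 0.60, adjusted p from 0.025 to 0.91). Slfn3 stayed below 0 in 14 of 14, and the 11 changes of sign were in Slfn1, Slfn5, Slfn8 and Slfn9. Slfn5 was -0.012 with library size alone, -0.061 with voom, -0.081 without control tumor 1, -0.15 without IFN-γ tumor 1 and also -0.15 without tumor 2 of that group, and -0.15 to 0.29 over all fits that left out 1 tumor. Without IFN-γ tumor 2, Slfn1 was -0.059 and Slfn8 was -0.049, with highest values of 0.57 and 0.33 when another tumor was left out. Slfn9 was 0.022 without control tumor 2, 0.080 without IFN-γ tumor 3 (lowest such value -0.11) and 0.0011 with close copies summed. The sum of Slfn8, Slfn9 and Slfn10-ps was -0.032 with library size alone, -0.0076 with upper-quartile factors, -0.012 with voom, -0.0050 with a filter of 1 CPM in 3 tumors, and -0.10 to 0.13 when 1 tumor was left out. The difference in share was -0.097 percentage points for Slfn1 without control tumor 2 (highest without 1 tumor, 1.04) and 0.90 for Slfn5 without IFN-γ tumor 3 (lowest, -1.56), and 47 of 49 share differences kept their direction. Only the direction could change, since the exact permutation test allows no p under 0.1. Scaling by library size alone cancels in a share and left every difference as it was. Relative to leukocyte markers, with all 6 tumors and without IFN-γ tumor 3, Slfn1 was -0.10 and -0.14, Slfn2 -0.015 and -0.054, Slfn5 -0.44 and -0.35, and Slfn8 -0.31 and -0.32. The cause was not tested.

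The 12 higher genes became 7 with library size alone, 125 with DESeq2 and 150 without a filter, and 4 to 381 when 1 tumor was left out. The 5 lower genes became 71 with DESeq2, 3 with voom and 70 without a filter, and 2 to 112. Members past the threshold were 0 to 1 when 1 tumor was left out. Members not overlapping were then 0 to 3 higher and 1 to 2 lower, where groups with fewer tumors overlap less often. Beside the 3 higher without IFN-γ tumor 3, the share over all genes tested was 18.1%. Such shares were not taken for the other counts with 1 tumor left out. The 0 genes past the threshold became 1 without a filter and 0 to 13 for type I interferon-induced genes, 1 with DESeq2, 6 without a filter and 0 to 19 for IFN-γ-induced genes, 0 to 3 for receptors and signalling, and 0 to 1 for other restriction factors. In each of these ranges of calls the highest value was without IFN-γ tumor 3, apart from the members that were lower without overlap, where it was without IFN-γ tumor 2.

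With a replicate block, 5 genes were higher and 2 lower, Slfn5 was at -0.050 and the sum of Slfn8, Slfn9 and Slfn10-ps at -0.012. The deviations of same-numbered tumors from their group means had correlations of -0.24, -0.0047 and -0.22, and the numbers were not read as pairs.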
